A study of Homo sapiens with 5 samples.

Results

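The translation initiation factor genes were examined for promoter peaks of 3 transcription factors in LM2, a lung-metastatic line that was derived from MDA-MB-231 breast cancer cells. Members were all protein-coding genes on chromosomes 1 to 22 and X whose symbol is EIF followed by a number, which gave 55 of 20098 genes. The list therefore includes regulators that carry such a symbol, namely the eIF2 kinases and the 4E-binding proteins, and near copies of initiation factor genes. ChIP-Seq peaks of Fra-1 (FOSL1, an AP-1 subunit), MYC and E2F1 were used, with 1 library per factor. In the study's protein blots for the ChIP-Seq experiment, the LM2 cells carried a control vector or an shRNA against a factor. All 3 lists were called against the same input library, so the lists are set side by side as descriptions. There is no replicate spread, and differences between peaks were judged by counting intervals alone. An EZH2 library and the input were not analysed here as peak lists. Expression was not measured in these files, so the identity of the cells was not checked against marker genes.

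Initiation factors bring the small ribosomal subunit to the cap of an mRNA and find the start codon. eIF4E binds the cap, eIF4G is the scaffold, and the helicase eIF4A unwinds the leader. eIF2 delivers the initiator tRNA and is recharged by eIF2B, and eIF3 holds the assembly on the small subunit. MYC binds the E-box CACGTG and is known for its binding at genes of ribosome and protein synthesis, whereas AP-1 dimers bind TGACTCA and E2F proteins bind promoters of cell cycle genes.

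A gene was counted when a peak overlapped, by at least 1 bp, the window from 2 kb upstream to 2.5 kb downstream of any of its transcriptional start sites (TSS). MYC peaks were found at 36 of the 55 initiation factor genes (65.5%), beside 17.7% of the other 20043 protein-coding genes. E2F1 peaks were found at 49 (89.1%), beside 61.2% of the others. Fra-1 peaks were found at 14 (25.5%), beside 13.2% of the others. Peaks of all 3 factors were found at 12 (21.8%), beside 4.63% of the others. This last share is not independent of the MYC share. Among genes with a MYC peak, Fra-1 was present at 33.3% of members and 26.2% of other genes. The share of initiation factor genes with a peak was thus 3.69 times that of other genes in the MYC list. In the E2F1 list it was 1.46 times that share, and in the Fra-1 list 1.93 times. With each list reduced to its 4867 peaks of largest −log10 q, the E2F1 ratio was 2.56 (65.5% against 25.6%). The Fra-1 ratio was then 1.06 (3.64% against 3.42%), which rests on 2 members, too few to tell whether an excess remained. The list of genes is fixed and each factor has 1 library, so no test was made.

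Initiation factor genes have more annotated start sites than other genes, with a median of 9 against 5, and their promoter windows covered a median of 13.2 kb against 9.26 kb. With only the canonical TSS of each gene, MYC peaks were found at 35 members (63.6%) and at 15.9% of other genes. E2F1 peaks were then found at 48 members (87.3%) and at 58.0% of others, and Fra-1 peaks at 12 (21.8%) and at 7.26% of others. The shares of members were therefore above those of other genes with windows of equal length too. Promoter GC content, taken from 250 bp before to 50 bp after the canonical TSS, had a median of 64.5% in members and 63.8% in others, and the observed over expected CpG ratio was 0.926 against 0.777. The part of CpG content in the shares was not tested.

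**Figure D1:**
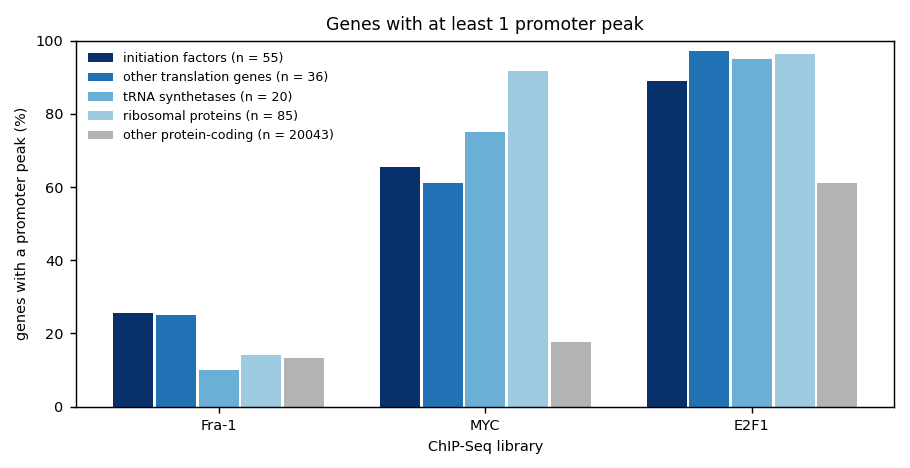
The vertical axis gives the percentage of genes with at least 1 promoter peak and the bars are gene sets, for each ChIP-Seq library. For MYC, 65.5% of initiation factor genes and 91.8% of ribosomal protein genes stand above 17.7% of other protein-coding genes, while the Fra-1 bars lie between 10.0% and 25.5%.

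The strength of each peak is its fold enrichment, the fragment pileup at the summit divided by the local background from the input. At genes with a peak, the strongest MYC peak had a median fold enrichment of 8.80 in members and 7.19 in other genes. The strongest E2F1 peak had a median of 31.7 against 21.98, and the strongest Fra-1 peak a median of 6.82 against 8.38. The median of members was therefore above that of other genes for MYC and E2F1 and below it in the Fra-1 list. These directions held under the alternative settings, but the Fra-1 and E2F1 differences were small under some. With −log10 q of at least 5, the Fra-1 medians were 8.47 in 10 members and 8.82 in other genes. Without genes that share a canonical window, the Fra-1 medians were 8.10 in 9 members and 8.40 in other genes. With equal numbers of peaks per list, the E2F1 medians were 36.2 in members and 34.5 in other genes. MYC summits of members lay closer to a start site, at a median of 64 bp from the nearest TSS against 127 bp in other genes, and MYC peaks were wider, at 318.5 bp against 191 bp. E2F1 summits lay at 36 bp against 91 bp, and Fra-1 summits at 155.5 bp against 524 bp. Members have more annotated start sites, so the nearest can lie closer, which also bears on shares within 500 bp of any TSS. From the canonical TSS the MYC medians were 172 bp in members and 263.5 bp in other genes. The E2F1 medians were 63 bp against 170 bp, and the Fra-1 medians 472.5 bp against 2480.5 bp. Within 500 bp of a TSS of the gene lay 34 of the 36 strongest MYC summits (94.4%, beside 81.7% in other genes). The same held for 45 of 49 strongest E2F1 summits (91.8%, near the 86.6% of other genes) and for 9 of 14 in the Fra-1 list (64.3%, beside 49.2%).

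**Figure D2:**
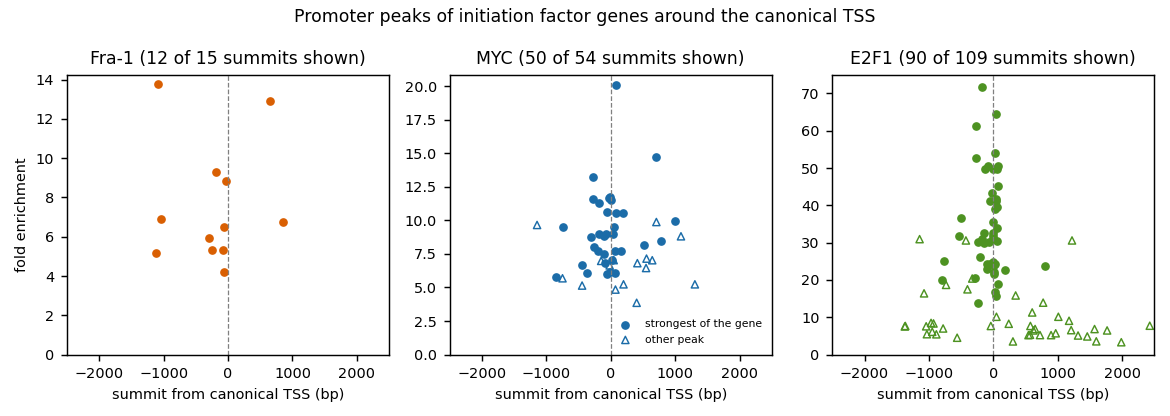
The horizontal axis gives the position of each promoter peak summit relative to the canonical TSS in bp, with positive values downstream, and the vertical axis gives its fold enrichment. Filled circles are the strongest peak of a gene and open triangles its other peaks. Within the plotted 2.5 kb on either side fall 50 of 54 MYC summits, 90 of 109 E2F1 summits and 12 of 15 Fra-1 summits. These counts follow largely from the choice of peaks, which had to overlap a promoter window of any TSS of the gene.

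The sequences below are examples of exact motif matches under the peaks, and not every E-box found is printed. Each is written 5′ to 3′ on the strand of the gene, in GRCh37, with the searched motif in capitals. E-boxes (CACGTG on either strand) within 50 bp of a MYC summit were found at EIF4A1, EIF3B, EIF3K, EIF5A2 and EIF2B5, among others. The MYC peaks at the EIF4A1 promoter, EIF3B and EIF3K also fell in promoter windows of SENP3, SNX8 and MAP4K1, in that order.
EIF4A1 promoter, chr17:7475840-7475863 (+): tcgcctccgCACGTGtgagagtgc
EIF4A1 second peak, chr17:7477261-7477284 (+): ggtcgggccCACGTGgacccggcg
EIF3B, chr7:2393709-2393732 (+): ccccgccccCACGTGacccgcgct
EIF3K, chr19:39109716-39109739 (+): ggaagaagtCACGTGgcagccgga
EIF5A2 first site, chr3:170626574-170626597 (-): ggcgctcttCACGTGactgggcgg
EIF5A2 second site, chr3:170626599-170626622 (-): aatccgcagCACGTGgggttgcca
EIF2B5 upstream peak, chr3:183851954-183851977 (+): cggaatcgcCACGTGgaaacagct
AP-1 motifs (TGACTCA, or TGAGTCA on the other strand) within 50 bp of a Fra-1 summit were found at 3 members.
EIF3J, chr15:44829316-44829340 (+): caaacccagTGACTCAcctccgccg
EIF4G1 internal start site, chr3:184038010-184038034 (+): ggaagccgcTGAGTCAccctggctc
EIF4A1 downstream peak, chr17:7482847-7482871 (+): tgaggccccTGAGTCAggctgtggg
The strongest MYC peak of the list, at EIF3D, and the next, at EIF5A, had no CACGTG within 50 bp of the summit. The bases around these summits are given with the 5 central bases in capitals.
EIF3D, chr22:36925109-36925137 (-): ccgaggccattgCAGGTgagcggcgtgtt
EIF5A, chr17:7211640-7211668 (+): ccctccccccagGTCCCggccaccggaag

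Among the genes for start codon selection, MYC peaks were called at 4 of 6, E2F1 peaks at 6 of 6 and Fra-1 peaks at 2 of 6. EIF1, whose product guards the fidelity of start codon choice, had a MYC peak of fold enrichment 8.15 and an E2F1 peak of 23.9. At EIF5, which encodes the activator of GTP hydrolysis by eIF2, the Fra-1 value was 12.9, the MYC value 8.03 and the E2F1 value 24.8. The Fra-1 summit of EIF5 lay 656 bp downstream of the canonical TSS, and AP-1 motifs stood 577 and 604 bp downstream, outside the 50 bp searched around that summit. EIF5B, the subunit joining factor, had the weakest of the strongest MYC peaks per gene, at 5.78, and an E2F1 peak of 30.4. EIF1AD, which encodes a protein with a domain like that of eIF1A, had a Fra-1 peak of 4.22, a MYC peak of 8.84 and an E2F1 peak of 33.9. EIF1AX and EIF1B had E2F1 peaks only, at 30.2 and 22.7.

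The genes of eIF2 and initiator tRNA delivery carried MYC peaks at 4 of 6 and E2F1 peaks at 5 of 6. The alpha subunit gene EIF2S1 had a Fra-1 value of 5.91, a MYC value of 11.6 and an E2F1 value of 45.1. The beta and gamma subunit genes EIF2S2 and EIF2S3 had MYC values of 7.72 and 8.76 and E2F1 values of 50.5 and 49.9, with no Fra-1 peak. All 3 subunit genes thus had MYC and E2F1 peaks. EIF2A, an alternative initiator tRNA factor, had a MYC peak of 6.08, and EIF2D, which also delivers tRNA to the small subunit, had an E2F1 peak only, at 18.9.

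Of the 5 subunit genes of eIF2B, which exchanges GDP for GTP on eIF2, 4 had a MYC peak and 5 an E2F1 peak. EIF2B1 had the strongest E2F1 peak of all members, at 71.7 (95% counting interval 61.5 to 83.1), together with 11.7 for MYC and 6.52 for Fra-1. EIF2B5, the catalytic subunit, had a MYC value of 11.6, an E2F1 value of 49.9 and a Fra-1 value of 5.19, and a second MYC peak of 9.66 whose summit lay at −1143 bp from the canonical TSS, next to the E-box printed above. EIF2B3 and EIF2B4 had MYC values of 10.6 and 8.96 and E2F1 values of 35.7 and 52.7. EIF2B2 had the lowest E2F1 value among the strongest peaks of the subunit genes, at 15.6, and no MYC peak.

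The eIF2 kinases lower initiation under stress by phosphorylating eIF2. All 4 had an E2F1 peak, from 22.8 at EIF2AK1 to 31.7 at EIF2AK3, but a MYC peak was assigned to EIF2AK3 (PERK) alone. That MYC peak, of 6.08, lay at −64481 bp from the canonical TSS, at −427 bp from an alternative start site, and also in the promoter window of RPIA. With the canonical TSS, no eIF2 kinase gene had a MYC peak. EIF2AK4 (GCN2), the sensor of amino acid shortage, had a Fra-1 peak of 9.32. The difference between kinases and core factors was not tested, because the group holds 4 genes.

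The eIF3 complex is the largest group, with 14 genes, of which 10 had a MYC peak, 12 an E2F1 peak and 1 a Fra-1 peak. EIF3D, whose product can bind the cap of selected mRNAs, had the strongest MYC peak of all members, at 20.1 (95% counting interval 15.7 to 25.3). Its summit lay 90 bp downstream of the canonical TSS, in the UTR, 25 bp from the E2F1 summit, where the fold enrichment was 50.6. EIF3M followed with 11.8 and EIF3E with 10.6 for MYC. EIF3B and EIF3A, which encode core subunits, had MYC values of 9.52 and 7.72. EIF3G and EIF3I both had 9.01, EIF3K had 6.81 and EIF3L had 6.14. EIF3K was second among members for E2F1, at 64.6. The strongest MYC peak of EIF3H, at 7.27, lay at −10729 bp from the canonical TSS, near an alternative start site and in the window of UTP23, and its peak at the canonical TSS had 4.84. EIF3J, the loosely bound subunit, carried the only Fra-1 peak among the 14 genes (7.14%, beside 13.2% of other protein-coding genes). EIF3J had a Fra-1 peak of 8.84 and an E2F1 peak of 32.5 but no MYC peak. The AP-1 motif of EIF3J stood at −17 bp from the canonical TSS. EIF3F had an E2F1 peak only, at 30.1.

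In the cap-binding machinery, MYC peaks were called at 4 of 5 genes of eIF4A helicases and their cofactors, 2 of 4 genes of the eIF4E family and 3 of 3 genes of the eIF4G scaffolds. EIF4A1, the main helicase gene, had a MYC peak of 13.3 that was 1501 bp wide, together with 3 further MYC peaks and an E2F1 peak of 41.0. E-boxes stood at 2 of these MYC peaks. Its Fra-1 peak of 10.9, over an AP-1 motif, lay 6717 bp downstream of the canonical TSS, past the end of the gene and also in the window of CD68. EIF4A2 had a MYC value of 7.03 and 8 E2F1 peaks, of which the strongest, at the TSS, had 54.1 and the next 9.38. EIF4B and EIF4H, cofactors of the helicase, had MYC values of 11.3 and 6.66, and EIF4H also had a Fra-1 peak of 5.30. EIF4A3, a helicase of the exon junction complex, had an E2F1 peak only, at 26.2.

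EIF4E, the cap-binding protein gene, had MYC peaks of 9.49 and 6.45, an E2F1 peak of 41.6 and a Fra-1 peak of 6.91. The MYC and E2F1 summits of EIF4E lay 50 and 34 bp downstream of the TSS, whereas the Fra-1 summit lay at −1036 bp. EIF4E2 had a MYC value of 6.003, an E2F1 value of 41.3 and a Fra-1 value of 5.30. EIF4E1B was counted for E2F1 through a peak 16382 bp downstream of its canonical TSS, in the window of TSPAN17, and no peak was called at the canonical TSS itself. Of the scaffolds, EIF4G3 had 10.6, EIF4G1 8.50 and EIF4G2 6.05 for MYC, and EIF4G2 had the third highest E2F1 value, at 61.3. The Fra-1 peak of EIF4G1, at 8.10, lay at an internal start site 5630 bp downstream of the canonical TSS. Among the regulators of eIF4E, EIF4EBP1 had 3 MYC peaks, the strongest 9.97, an E2F1 peak of 23.7 and a Fra-1 peak of 6.74, all in or next to the beginning of the gene. EIF4EBP2 and the transporter gene EIF4ENIF1 had E2F1 peaks only, at 24.3 and 19.9.

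**Figure D3:**
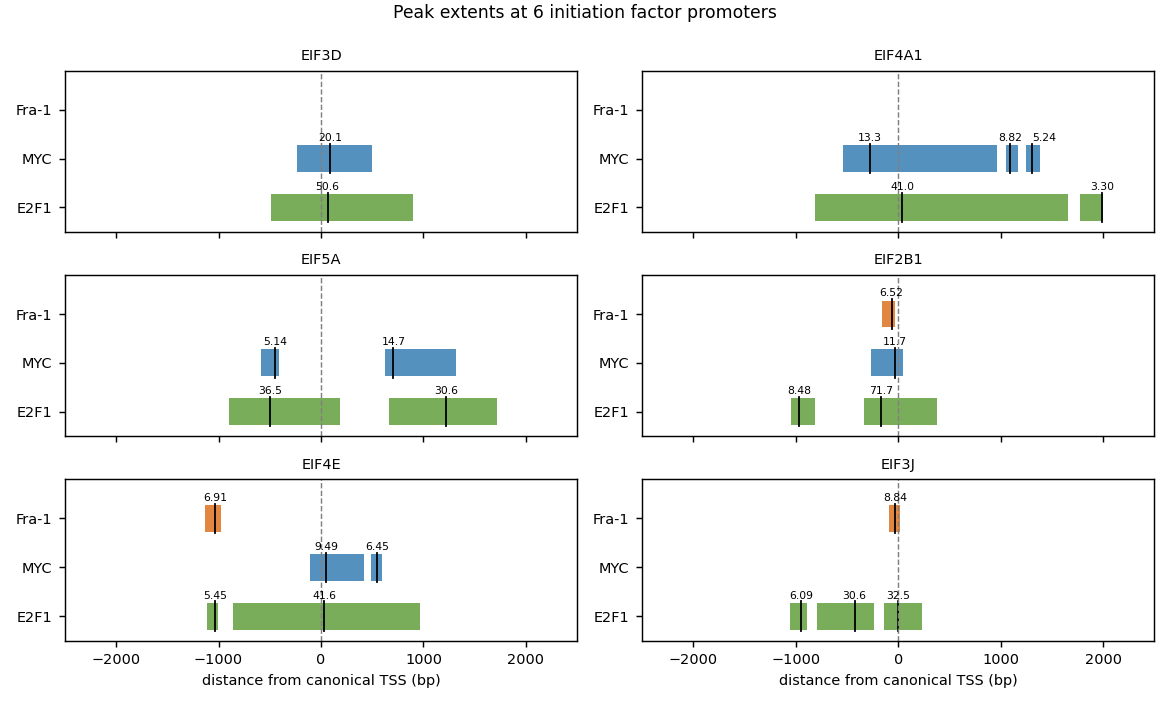
Horizontal bars are peak extents at EIF3D, EIF4A1, EIF5A, EIF2B1, EIF4E and EIF3J, black ticks are summits, the numbers are fold enrichment, and the horizontal axis is the distance from the canonical TSS in bp. MYC peaks overlap E2F1 peaks at the first 5 genes, and EIF3J has Fra-1 and E2F1 peaks without a MYC peak. Peaks with summits beyond 2.5 kb are not drawn.

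EIF5A, whose hypusinated product helps ribosomes through difficult peptide bonds, had the second strongest MYC peak, at 14.7 (95% counting interval 11.0 to 19.4), and an E2F1 peak of 36.5. The MYC summit of EIF5A lay 707 bp downstream of the canonical TSS and at −36 bp from another annotated start site. Its relative EIF5A2 had 7.72 for MYC, over a pair of E-boxes, and the lowest value among the strongest E2F1 peaks per gene, at 13.8. EIF5A2 also had the strongest Fra-1 peak of the list, at 13.8, with a summit at −1088 bp. EIF6, which keeps the large ribosomal subunit from joining too early, had 7.49 for MYC and 31.9 for E2F1.

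No promoter peak of any factor was called at 6 members, namely EIF2S3B, EIF3C, EIF3CL, EIF4E3, EIF4EBP3 and EIF5AL1. EIF3C and EIF3CL are near-identical copies. Of the stretches of 49 bp, the tag length, in the canonical promoter window of EIF3C, 95.3% occurred unchanged in that of EIF3CL. The authors kept only uniquely mapping reads. Read coverage at these promoters was not examined, and the part of the copies in the missing calls was not tested. EIF2S3B and EIF5AL1 are copies of EIF2S3 and EIF5A, and their sequences were not compared here. Genes without any of the 3 peaks made up 10.9% of members and 37.8% of other genes.

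**Figure D4:**
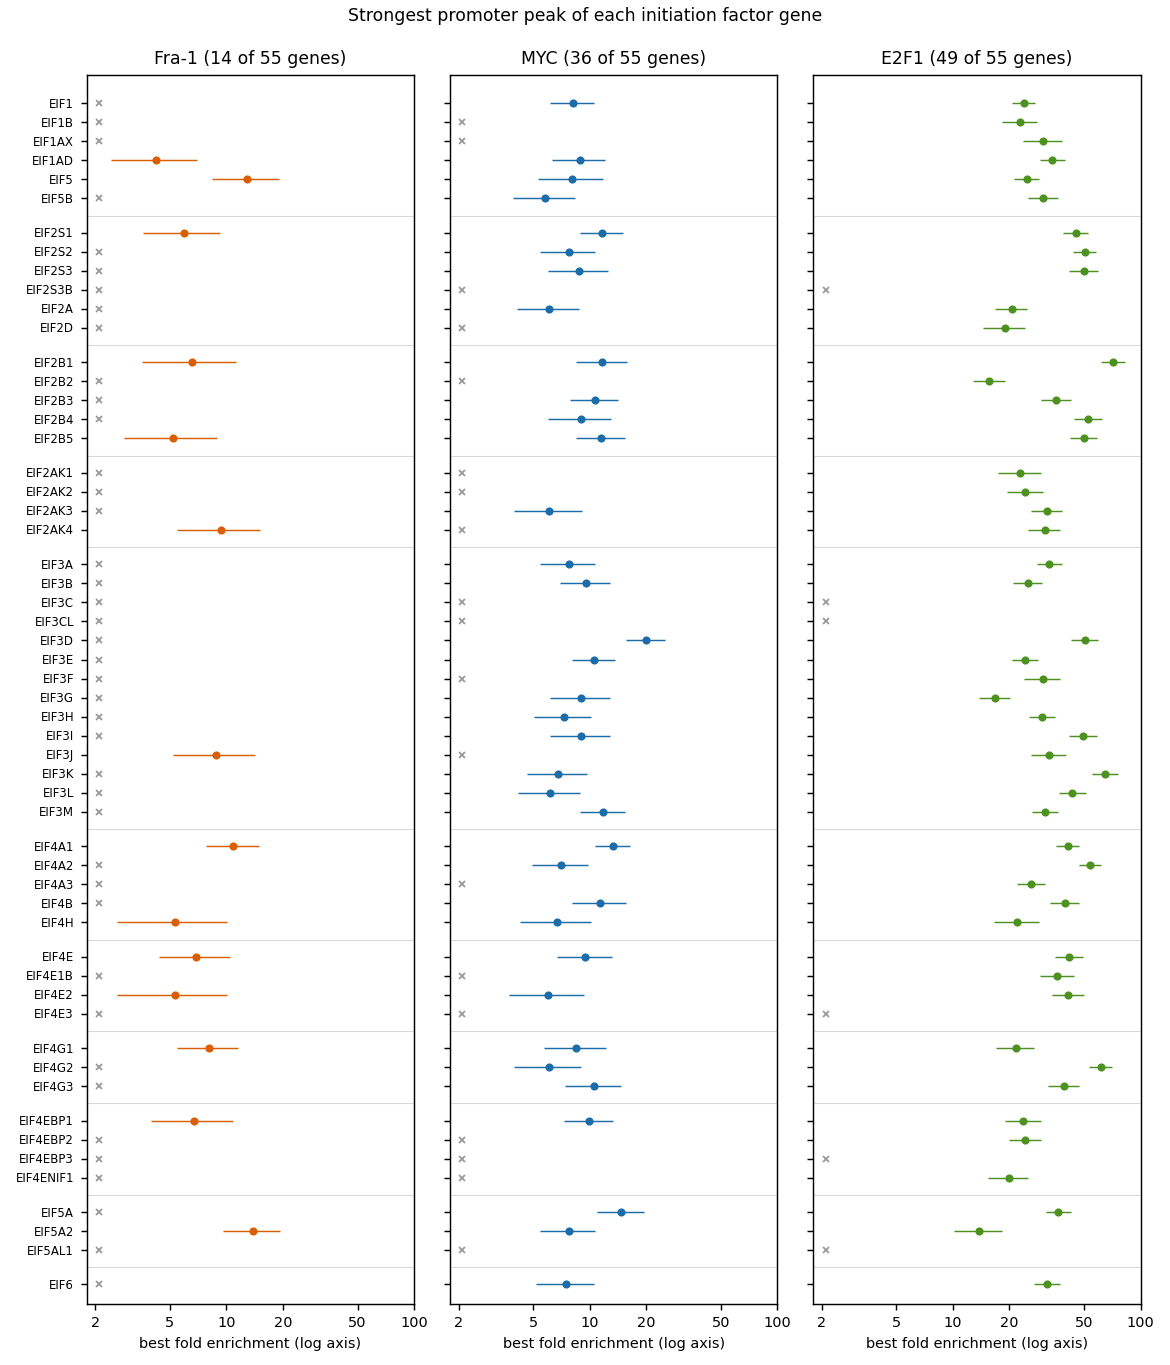
Each row is an initiation factor gene, grouped by function, and the horizontal log axis gives the fold enrichment of its strongest promoter peak in each library. Points are single values from 1 library, bars are 95% counting intervals, and grey crosses mark genes without a called peak. EIF3D is highest for MYC at 20.1 and EIF2B1 for E2F1 at 71.7.

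The counting intervals are approximate and cover the counting error of ChIP fragments only. By these intervals the order of MYC values was poorly resolved. In the order of the 36 members with a MYC peak, all 35 pairs of neighbours had overlapping intervals, and the interval of EIF3D overlapped those of 3 other members. The strongest MYC peaks of members had −log10 q between 4.05 and 35.9, and 5 of these 36 peaks were below 5. The lack of a MYC call at the remaining 19 members therefore cannot be told from binding below the depth of this library, which had 23853621 tags after filtering.

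By combination, 24 members had MYC and E2F1 peaks (43.6%, beside 13.0% of other genes), 12 had all 3, 11 had E2F1 alone and 2, EIF2AK4 and EIF3J, had Fra-1 and E2F1. E2F1 alone made up 20% of members and 35.9% of other genes, and Fra-1 with E2F1 made up 3.64% and 7.68%. Both combinations are defined by the lack of a MYC peak, so their shares are not independent of the MYC share. Among genes with an E2F1 peak and no MYC peak, Fra-1 was present at 15.4% of members and 17.6% of other genes. No member had a MYC or Fra-1 peak without an E2F1 peak, which was rare in other genes too, at 0.898% with Fra-1 alone, 0.0349% with MYC alone and 0.00998% with both. The E2F1 list is the longest, with 36933 peaks against 17320 for Fra-1 and 4867 for MYC. Among genes with an E2F1 peak, MYC was present at 73.5% of members and at 28.9% of other genes. At genes whose strongest E2F1 peak reached a fold enrichment of 20, the shares were 77.3% and 42.3%. The excess of MYC peaks at members was thus present, but smaller, among genes with strong E2F1 peaks. In all 36 members with both, a MYC peak overlapped an E2F1 peak by at least 1 bp, and in 31 a pair of summits lay within 250 bp. The matching overlap in other genes is not given here, so it cannot be called particular to members. Of 3551 other genes with a MYC peak, 3542 also had an E2F1 peak. In 8 of the 12 members with all 3 factors, namely EIF1AD, EIF2B1, EIF2B5, EIF2S1, EIF4A1, EIF4E2, EIF4EBP1 and EIF4H, the peaks overlapped in 1 region, beside 572 of 927 other genes. At EIF4A1 this region lay past the end of the gene, in the window of CD68, with a MYC peak of 6.59.

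Several promoters are shared with a neighbouring gene. Of the strongest peaks of members, 15 of 36 MYC peaks, 15 of 49 E2F1 peaks and 6 of 14 Fra-1 peaks also fell in the promoter window of another protein-coding gene, such as GTF2H3 next to EIF2B1, ATP6V1D next to EIF2S1 and SNX17 next to EIF2B4. For these the peak cannot be assigned to 1 of the genes. Of the 12 members with another canonical TSS in the canonical window, 10 had a MYC peak, and of the 43 without one, 26 had a MYC peak. The matching counts for other genes are not given here, so sharing cannot be called particular to members. Without genes that share a canonical window, MYC peaks were at 60.5% of members and 14.7% of other genes. With all genes these shares were 65.5% and 17.7%.

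The share of MYC peaks with an E-box was near that of other genes. An E-box stood within 50 bp of the summit at 9 of 54 MYC promoter peaks of members (16.7%, 95% Wilson interval 9.02 to 28.7%) and at 16.3% of those of other genes. In windows of the same length at the canonical TSS of other genes, the share was 3.30%. The variant CACGCG was found at 16.7% of MYC peaks of members, 11.8% of those of other genes and 5.88% of the TSS windows. Members with an E-box at the strongest MYC peak, 5 in number, had a median fold enrichment of 7.72, and the 31 without one had a median of 8.84. The E2F motifs TTTGGCGC, TTTCCCGC, TTTCGCGC and TTTGCCGC, searched together on both strands, were found at 1.83% of E2F1 peaks of members, 2.19% of those of others and 1.39% of TSS windows.

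AP-1 motifs were less frequent at the Fra-1 promoter peaks of members. An AP-1 motif stood within 50 bp of the summit at 3 of 15 Fra-1 promoter peaks of members (95% Wilson interval of the share 7.05 to 45.2%) and at 49.7% (48.0 to 51.5%) of those of other genes, against 1.08% of TSS windows. The intervals did not overlap. Among Fra-1 peaks with summits within 500 bp of a protein-coding TSS, the motif was at 3 of 10 in members (30.0%, 10.8 to 60.3%) and at 42.8% (40.4 to 45.3%) in others, which was within counting error. Farther from a TSS it was at 0 of 5 in members, with an upper Wilson bound of 43.4%, and at 56.5% in others. Inside the gene bodies but outside the promoter windows, 5 members had a Fra-1 peak (9.09%), beside 17.4% of other genes, and 4 of these 5 peaks had an AP-1 motif, beside 53.9% of such peaks in other genes. The median gene length was 23.9 kb in members and 27.3 kb in others. They were EIF4G1 with a fold enrichment of 14.8, EIF2AK3 with 12.03, EIF4G3 with 8.24, EIF2B2 with 7.74 and, without the motif, EIF4EBP1 with 5.05. No MYC peak was called in that part of any member, beside 2.45% of other genes.

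Other genes of translation, were listed apart from the initiation factors. Of 36 such genes without an EIF symbol, 22 had a MYC peak (61.1%), 35 an E2F1 peak (97.2%) and 9 a Fra-1 peak (25.0%). MYC peaks were called at 7 of 9 elongation factor genes, led by EEF2 with 13.9, and at 3 of 4 genes for termination and recycling, led by ETF1 with 8.17. They were also called at 7 of 12 further initiation helpers, led by the cap-binding complex gene NCBP2 with 22.4. Of 9 genes for kinases and the stress response of initiation 4 had a MYC peak, led by ATF4 with 11.5, and of the 2 hypusination genes DOHH had 6.23. Cytosolic ribosomal protein genes had MYC peaks at 78 of 85 (91.8%) with a median of 10.6, led by RPL5 with 28.2. Aminoacyl-tRNA synthetase genes had them at 15 of 20 (75.0%) with a median of 7.05, led by YARS1 with 25.5. By MYC share the initiation factor genes thus lay between other protein-coding genes and the ribosomal protein genes, and Fra-1 peaks were called at 14.1% of the latter.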

How the data were processed

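The peak lists of 3 ChIP-Seq libraries from LM2 cells were used, 1 for each transcription factor. The authors trimmed reads, aligned them to a masked hg19 genome keeping uniquely mapping reads, removed duplicates and called peaks with MACS2 against 1 input at a q-value cutoff of 0.01. The submitters' processing notes name Trimmomatic 0.27, Bowtie 0.12.5, SAMtools and MACS2 2.0.10. The deposited signal is the fragment pileup at the summit, scaled to the input. The deposited fold enrichment divides this pileup by the local input background, after adding a pseudocount of 1 to both. Each deposited p-value and q-value is on a −log10 scale. After filtering, the Fra-1 library held 12931227 tags, the MYC library 23853621, the E2F1 library 18056168 and the input 10758036, and fold enrichment is only roughly comparable between libraries.

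Genes and start sites came from GENCODE 44 mapped to GRCh37. For the canonical TSS, 279 protein-coding genes without one were left out. Counting intervals are exact Poisson intervals on the fragments before scaling, with the background taken as fixed. Since pileups were deposited as whole numbers, the intervals are approximate. Motif shares have 95% Wilson intervals. Values are given for every member with a MYC or Fra-1 peak, the 5 with the largest E2F1 values and those with no peak, and for the leading MYC gene of each further list. E2F1 values of other members, and genes of shared windows, were named after their values were seen, as were the 6 promoters mapped, the variant motif, the split by distance from a TSS and the gene-body peaks. The members and lists were chosen with earlier results of these data known. Alternatives were stricter peak thresholds, equal numbers of peaks, windows of 1 kb, summits in place of peaks, canonical TSS, and lists without the 8 regulators or without genes in shared windows. Assignment and intervals were tested on simulated data. The software was pysam 0.24.0, matplotlib 3.10.9, scipy 1.17.1, pandas 2.3.3, numpy 2.4.6 and Python 3.11.15.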

Additional observations from a re-analysis of the deposited data

How the results depend on the processing

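Of 60 alternative values, 53 kept within 1.5 times the count, or within the spread, of the value reported, and 7 did not. With each list reduced to 4867 peaks, Fra-1 peaks were left at 2 members (3.64%, beside 3.42% of other genes) with a median fold enrichment of 12.3, and peaks of all 3 factors at 1. Without genes that share a canonical window, 9 of 43 members had a Fra-1 peak (20.9%, beside 13.5% of other genes) and 7 had all 3 (16.3%, beside 4.34%). With a reciprocal overlap of 50%, a MYC peak overlapped an E2F1 peak in 9 members and the 3 factors overlapped in 0. Equal numbers of peaks leave out most Fra-1 peaks by construction. The strongest peaks of members had median widths of 859 bp for E2F1, 318.5 bp for MYC and 147.5 bp for Fra-1. A narrow peak inside a much wider one cannot reach a reciprocal overlap of 50%. The counts without shared windows are also of fewer members, 43 in place of 55. Otherwise the cause was not tested. The ratio of members to other genes ranged from 3.69 to 4.48 for MYC, from 1.46 to 2.56 for E2F1, from 1.06 to 3.005 for Fra-1 and from 2.11 to 6.55 for all 3. With 1 library per factor, no variation between cultures could be measured, and a peak missing at this depth is not evidence that binding is absent. No paired analysis was possible because each group holds 1 library.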
